A study of Homo sapiens with 6 samples.

Results

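The genes for 10 secreted plasma proteins were followed in definitive endoderm (DE) made from H1 cells: the carriers AFP and TTR, the apolipoproteins APOA1, APOA2, APOB, APOC1 and APOE, vitronectin (VTN), the fibrinogen beta chain (FGB) and alpha-1-antitrypsin (SERPINA1). They were chosen by name as products of the endoderm lineage, under a rule that uses no measured value, but with earlier results of these data known. They are 10 of the 40396 genes measured. H1 cells are a line of human embryonic stem cells. RNA was sequenced from 3 control samples given the solvent DMSO and from 3 samples given 0.5 µM saracatinib (SAR), an inhibitor of Src family kinases, at day 3 of differentiation. Both groups received 50 ng/ml activin A on every day and 2.5 µM CHIR99021, an activator of Wnt signaling, during the first 24 h. Nothing in the sources used here says whether the 3 samples of a group were separate cultures, so p-values measure only the spread between these samples, which may be technical.

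Plasma proteins are made mainly by hepatocytes, which descend from definitive endoderm, and by the visceral endoderm of the yolk sac before the liver forms. Each is translated with a signal peptide, enters the endoplasmic reticulum and is secreted. Apolipoproteins coat lipid particles and guide them to receptors and enzymes, AFP and TTR carry small ligands through the blood, and transcription factors of the HNF4, FOXA, C/EBP and GATA families are known to act on these genes in liver.

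The 10 genes fell into 3 levels in day 3 DE. APOE, APOC1, APOA1 and APOA2 were expressed at 13.2 FPKM or more in every library, VTN at 0.344 to 1.48 FPKM, and AFP, APOB, TTR, SERPINA1 and FGB under 0.5 FPKM in every library. FPKM is the number of reads of a gene scaled by its length and by the total of its library. With SAR, VTN was upregulated 2.55-fold by the ratio of group means and APOA2 rose 1.75-fold, while APOA1 and APOC1 did not pass the test. APOE rose 1.19-fold, a difference that did not pass after rescaling of the libraries.

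Promoter bases are shown for AFP, the fetal serum protein that stayed at a few reads, for VTN and APOA2, which differed most between the groups, and for APOE, the most abundant of the 10. Each line holds the 250 bases before the transcription start in RefSeq (build GRCh38.p14), 5′ to 3′ on the strand of the gene. Capitals mark matches to any of 6 motifs on either strand: the TATA box as TATAAA, the GC box of promoters rich in guanine and cytosine as GGGCGG, the HNF4 motif as CAAAGTCCA, the forkhead motif of FOXA factors as TGTTTAC, the C/EBP motif as TTGCNNAA and the motif of GATA factors as AGATAA. AFP lies at chr4:73435971-73436220 on the plus strand, APOA2 at chr1:161223629-161223878 on the minus strand, VTN at chr17:28370308-28370557 on the minus strand, and the first of 3 APOE entries at chr19:44905546-44905795 on the plus strand.
AFP: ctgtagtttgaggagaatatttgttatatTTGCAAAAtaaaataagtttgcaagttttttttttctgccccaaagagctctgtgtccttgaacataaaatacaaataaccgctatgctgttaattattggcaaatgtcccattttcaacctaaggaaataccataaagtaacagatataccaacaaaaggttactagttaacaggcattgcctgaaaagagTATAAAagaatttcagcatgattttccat
APOA2: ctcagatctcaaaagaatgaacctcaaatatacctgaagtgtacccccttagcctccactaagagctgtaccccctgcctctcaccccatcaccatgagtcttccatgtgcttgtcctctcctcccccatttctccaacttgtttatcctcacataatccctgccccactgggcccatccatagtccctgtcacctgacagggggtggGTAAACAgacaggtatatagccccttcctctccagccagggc
VTN: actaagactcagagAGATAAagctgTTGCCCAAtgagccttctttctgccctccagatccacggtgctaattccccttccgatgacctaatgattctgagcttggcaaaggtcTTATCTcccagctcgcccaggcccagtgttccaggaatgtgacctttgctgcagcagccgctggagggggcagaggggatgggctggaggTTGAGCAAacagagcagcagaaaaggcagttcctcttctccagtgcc
APOE: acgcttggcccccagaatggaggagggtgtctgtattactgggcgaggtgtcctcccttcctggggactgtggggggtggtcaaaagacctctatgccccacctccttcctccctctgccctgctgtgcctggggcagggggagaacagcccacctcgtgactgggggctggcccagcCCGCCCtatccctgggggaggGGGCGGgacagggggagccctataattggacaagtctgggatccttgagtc

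The AFP bases held a TATA box beginning 29 bases before the start and a C/EBP match at 221. The APOA2 bases held 1 FOXA match, on the opposite strand and beginning 42 bases before the start. VTN held C/EBP matches at 225 and 47 and GATA matches at 236 and 137, and the APOE bases held GC boxes at 72 and 51 and none of the other motifs. Of 35116 RefSeq promoter windows of the same length, 10.7% held the TATA box, 42.6% the GC box, 0.325% the HNF4 motif, 2.98% the FOXA motif, 9.05% the C/EBP motif and 9.17% the GATA motif. GC content was 31.6% in the AFP bases, 52.8% in APOA2, 54.8% in VTN and 64.8% in APOE. A match describes the letters and does not show that a factor binds there. Promoter entries were matched for 7 of the 10 genes, and none was matched for TTR, APOA1 and APOB. The printed starts of AFP and VTN lie 5083 and 2784 bases inside the gene as GENCODE 29 draws it.

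The control libraries held 18877964 to 24419937 reads by recovery from the FPKM, and the SAR libraries 16681280 to 18389543. Of 13 definitive endoderm markers 13 passed the filter on low values (a mean of at least 0.5 FPKM). Their summed level was 3987 to 5095 FPKM in control and 2118 to 2172 FPKM with SAR, most of it CER1, and 6 rose and 6 fell by adjusted p. Of 14 hepatoblast genes 8 stayed under 0.5 FPKM in every library, and ALB, the gene for serum albumin, did not exceed 0.158 FPKM. Of 10 pluripotency markers 10 passed the same filter, with POU5F1 between 138 and 222 FPKM over the 6 libraries, so passing it does not by itself establish the endoderm label. The RNA came from whole cultures, so fewer cells of a type and less RNA per cell cannot be told apart.

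Control replicate 1 stood apart among genes of low expression. It was the highest of the 6 libraries for all 5 of the 10 genes under the filter, for 53 of 67 such genes (79.1%) in related lists of plasma proteins, and for 7748 of the 24025 (32.2%) genes under the filter in the whole table. The summed level of the 67 genes was 13.1 FPKM in control replicate 1 and between 2.73 and 5.06 FPKM in the other 5 libraries. Genes above 0 FPKM numbered 33169 in it and between 29506 and 30109 in the others. For the 10 genes the values are given library by library, and the change of VTN also without this library. Group means and ranges of the related and marker lists include it.

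**Figure D1:**
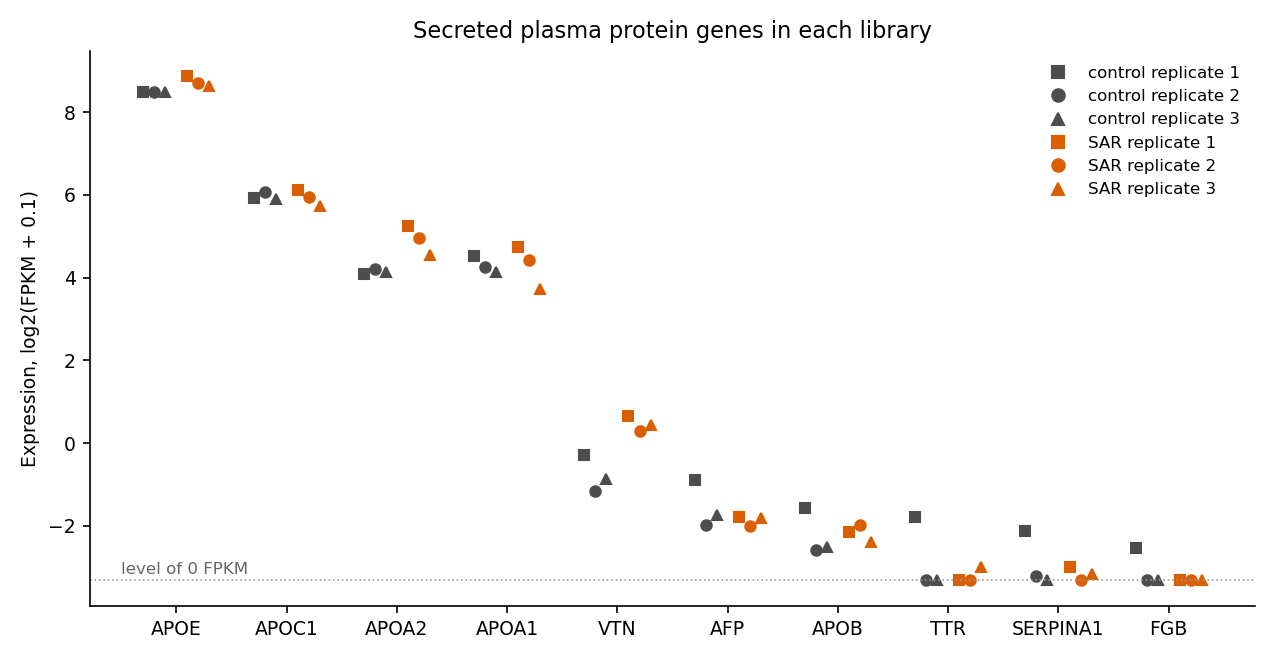
Expression of the 10 genes as log2(FPKM + 0.1) in each library, with 1 symbol per library, control in gray and SAR in orange, ordered by level; the dotted line is a level of 0 FPKM. APOE, APOC1, APOA2 and APOA1 lie far above the rest, and for the 5 lowest genes the gray square of control replicate 1 is the highest symbol.

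The test was limma on log2(FPKM + 0.1), with Benjamini-Hochberg adjustment over the 16371 genes past the filter. A gene is said here to have risen or fallen when its adjusted p was under 0.05, and to be upregulated or downregulated when its log2 fold change also exceeded 1 in size. By the stricter rule 3.41% of all tested genes were upregulated and 1.58% downregulated, and by adjusted p alone 23.7% rose and 9.55% fell. Of the 10 genes 5 were tested, of which 1 was upregulated, 0 were downregulated, 3 rose by adjusted p alone and 0 fell. Their groups did not overlap for 3 genes, all higher with SAR, while 35.5% of all tested genes lay wholly higher and 15.2% wholly lower with SAR. The median log2 fold change was 0.25 over these 5 genes and 0.12 over all tested genes. The second value became -0.02 after median-ratio rescaling of the libraries, so the fold changes of the 5 genes are also given after rescaling in the plot of fold changes, and losses of a call in the related lists are named there.

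AFP, the major serum protein of the fetus (ENSG00000081051, GRCh38 chr4:73431138-73456174), was represented by few reads. Its level was 0.442, 0.154 and 0.199 FPKM in control replicates 1, 2 and 3, from 31, 12 and 12 reads. With SAR it was 0.187, 0.147 and 0.187 FPKM, from 10, 8 and 11 reads. The control value was high in replicate 1 alone, and the other 5 libraries lay between 0.147 and 0.199 FPKM with the groups overlapping.

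TTR, which carries thyroid hormone and retinol-binding protein (ENSG00000118271, GRCh38 chr18:31557010-31599021), had 9 reads (0.189 FPKM) in control replicate 1 and 1 read (0.0250 FPKM) in SAR replicate 3. It was listed at 0 FPKM in the other 4 libraries, where a count of 0 allows up to 0.0564 to 0.0826 FPKM (3 reads, counting error only). All but 1 of its 10 reads therefore came from the control library that stood apart.

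APOE, which coats lipid particles and binds lipoprotein receptors on cells (ENSG00000130203, GRCh38 chr19:44905754-44909393), was the most abundant of the 10. Its level was 360.2, 355.9 and 361.4 FPKM in control and 469.2, 415.3 and 398.0 FPKM with SAR. By rank it was between the 69th and the 81st gene of every library, and it made up between 77.2% and 81.3% of the summed FPKM of the 10 genes. The groups did not overlap, with means of 359 ± 2.92 and 427 ± 37.2 FPKM (SD, n = 3 each). The log2 fold change was 0.25 (SE 0.0726, 95% interval 0.08 to 0.42, adjusted p = 0.0385 from limma). After median-ratio rescaling it was 0.11 with an adjusted p of 0.333 from limma, and after quantile normalization 0.12 with 0.0849. The adjusted p passed in 5 of 15 alternatives, whereas the log2 fold change stayed between 0.18 and 0.30 in all of them but these 2 rescalings.

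APOC1, which lies next to APOE in the same gene cluster and modulates lipid enzymes (ENSG00000130208, GRCh38 chr19:44914247-44919349), was second in abundance. Its level was 60.3, 67.3 and 59.5 FPKM in control and 69.5, 61.5 and 53.3 FPKM with SAR. The SAR libraries lay on both sides of the control libraries, with means of 62.4 ± 4.29 and 61.4 ± 8.07 FPKM (SD, n = 3 each). The log2 fold change of -0.03 had a 95% interval of -0.27 to 0.22 (adjusted p = 0.851 from limma). Of its exon bases 43.2% also belong to AC011481.3 on the same strand, so its reads and those of that gene are uncertain.

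APOA1, the main protein of high-density lipoprotein (ENSG00000118137, GRCh38 chr11:116835751-116837950), was at 22.9, 19.1 and 17.4 FPKM in control and at 26.5, 21.3 and 13.2 FPKM with SAR. The SAR libraries held both the highest and the lowest of the 6 values. The log2 fold change was -0.01 (95% interval -0.59 to 0.57, adjusted p = 0.979 from limma), an interval that does not exclude a change of 0.5 in either direction. An antisense gene, APOA1-AS, covers 8.64% of its exon bases, and the strand setting of the counting is not given in the sources used here.

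APOA2, the second protein of high-density lipoprotein (ENSG00000158874, GRCh38 chr1:161222292-161223631), was at 16.9, 18.4 and 17.5 FPKM in control and at 37.7, 31.2 and 23.2 FPKM with SAR. All SAR libraries lay above all control libraries, with means of 17.6 ± 0.761 and 30.7 ± 7.23 FPKM (SD, n = 3 each). These values rest on 312 to 424 reads per control library and 404 to 594 reads per SAR library. APOA2 rose by a log2 fold change of 0.77 (SE 0.162, 95% interval 0.39 to 1.16, adjusted p = 0.0127 from limma). The adjusted p passed in 15 of 15 alternatives, with log2 fold changes from 0.61 to 0.96, and in none of them did the change exceed 1.

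APOB, the structural protein of low-density lipoprotein (ENSG00000084674, GRCh38 chr2:21001429-21044073), was at 0.237, 0.0663 and 0.0750 FPKM in control and at 0.125, 0.151 and 0.0917 FPKM with SAR. These levels come from 77, 24 and 21 reads in control and 31, 38 and 25 with SAR. Control replicate 1 was the highest library, whereas control replicates 2 and 3 were the lowest.

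**Figure D2:**
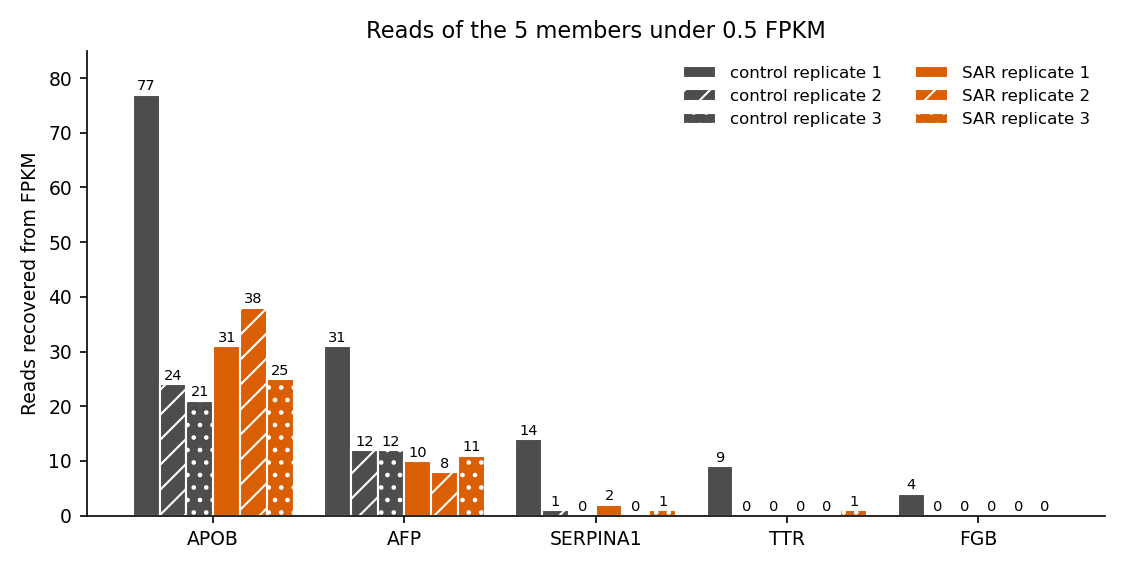
Reads recovered from the FPKM for the 5 genes under 0.5 FPKM, with 1 bar per library and the number of reads above it, control in gray and SAR in orange. Control replicate 1 is the tallest bar for all 5 genes, from 77 reads of APOB to 4 of FGB.

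VTN, a glycoprotein of plasma and extracellular matrix that integrins bind (ENSG00000109072, GRCh38 chr17:28367276-28373091), was the only one of the 10 past the stricter rule. Its level was 0.719, 0.344 and 0.445 FPKM in control, from 30, 16 and 16 reads, and 1.48, 1.12 and 1.26 FPKM with SAR, from 47, 36 and 44 reads. Every SAR library lay above every control library, with means of 0.503 ± 0.194 and 1.28 ± 0.184 FPKM (SD, n = 3 each). VTN was upregulated by a log2 fold change of 1.24 (SE 0.260, 95% interval 0.62 to 1.85, adjusted p = 0.0129 from limma). Without control replicate 1 the change was 1.48 (adjusted p = 0.00771 from limma). That library held the highest control value, so leaving it out enlarges the rise by construction. The control mean was then 0.395 FPKM, under the filter, and VTN was tested in that fit only through its SAR values. With a pseudocount of 1 FPKM the change of VTN was 0.61, under the fold threshold, with an adjusted p of 0.00961 from limma. Of the exon bases of VTN 13.6% also belong to AC002094.3 on the same strand.

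Among 12658 tested genes with a symbol and a mean of at least 1 FPKM, HESX1, CHRNB1 and DPH7 followed VTN most closely over the 6 libraries (Pearson correlations of 0.998, 0.998 and 0.997 on the log2 scale). These correlations are a description, and 6 points that fall into 2 groups can be followed by many genes. HESX1, a homeobox gene, was at 2.26, 1.40 and 1.67 FPKM in control and at 3.81, 2.92 and 3.39 FPKM with SAR. Like VTN it was lowest in replicate 2 of each group, which comes with its choice by correlation and is no further observation.

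FGB, a chain of the clotting protein fibrinogen (ENSG00000171564, GRCh38 chr4:154562956-154571086), was listed above 0 in control replicate 1 alone, at 0.0731 FPKM. This is 4 reads at the gene length nearest to the annotated one. In the other 5 libraries a count of 0 allows up to 0.0490 to 0.0718 FPKM (3 reads). SERPINA1, the inhibitor of neutrophil elastase (ENSG00000197249, GRCh38 chr14:94376747-94390693), had 14, 1 and 0 reads in control, or 0.130, 0.00835 and 0 FPKM. With SAR it had 2, 0 and 1 reads, or 0.0245, 0 and 0.0111 FPKM. For both genes the reads were concentrated in control replicate 1, and the other libraries did not separate the groups. When the filter on low values was dropped, the adjusted p of AFP, APOB, TTR, FGB and SERPINA1 was between 0.555 and 0.951 from limma, and at these depths no difference was detectable.

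**Figure D3:**
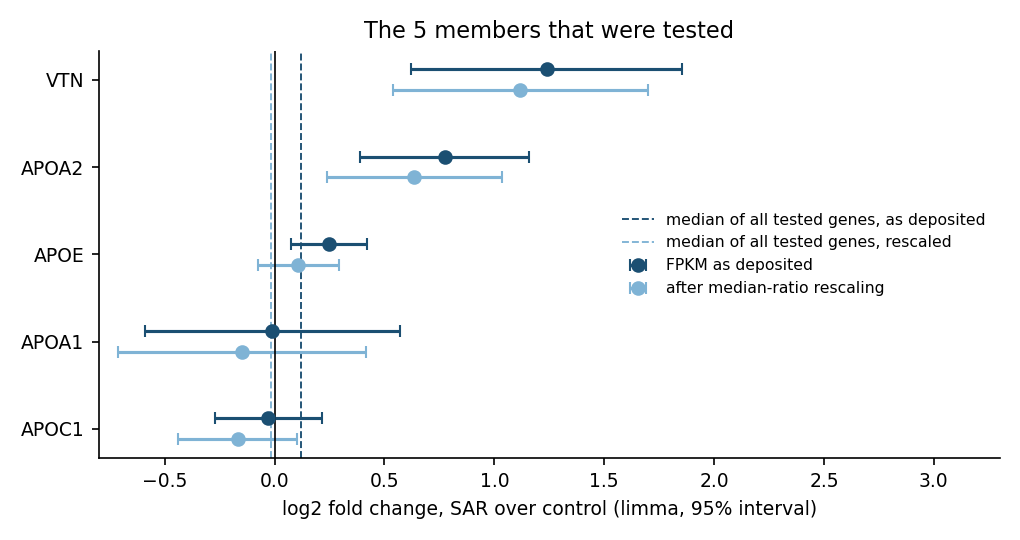
Log2 fold change of SAR over control for the 5 tested genes, with 95% intervals from limma, for the FPKM as deposited (dark) and after median-ratio rescaling (light); dashed lines are the medians of all tested genes under each scaling. The intervals of VTN and APOA2 stay above 0 under both scalings, that of APOE includes 0 after rescaling, and those of APOA1 and APOC1 include 0 under both.

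Ratios between genes of one library do not depend on the scaling of that library. APOA2 and APOA1 are partners in high-density lipoprotein, and their ratio of FPKM was 0.736, 0.960 and 1.01 in control and 1.42, 1.46 and 1.76 with SAR. All SAR ratios lay above all control ratios, with means of 0.901 ± 0.144 and 1.55 ± 0.186 (SD, n = 3 each). The ratio of APOE to its neighbor APOC1 was 5.97, 5.29 and 6.08 in control and 6.75, 6.76 and 7.46 with SAR, which also did not overlap. The ratio of APOE to APOA2 was lower with SAR, at 12.5 to 17.1 against 19.4 to 21.4, and that of APOE to APOA1 overlapped between the groups. In a two-sided exact permutation test the first 3 ratios gave p = 0.1, the smallest value that 3 against 3 libraries allow, and p = 0.133 after adjustment over the 4 ratios computed. The fourth gave p = 0.5 in the exact permutation test. No ratio can pass a threshold of 0.05 in this design.

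**Figure D4:**
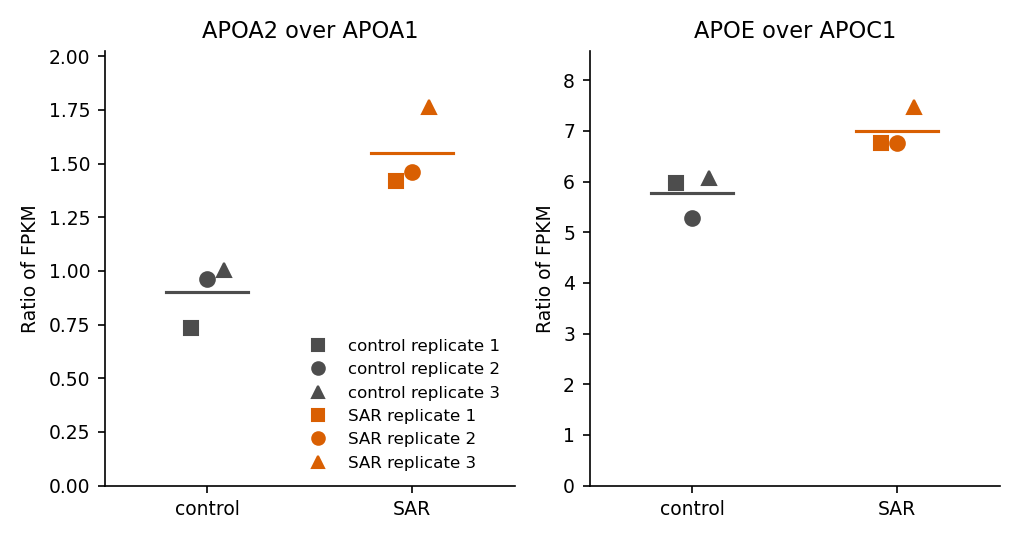
Ratio of FPKM of APOA2 to APOA1 (left) and of APOE to APOC1 (right) in each library, with a line at the mean of each group. In both panels the 3 SAR libraries lie above the 3 control libraries.

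The SAR libraries differed among themselves more than the control libraries did for the 4 abundant apolipoproteins. The coefficient of variation was 33.0% with SAR against 14.2% in control for APOA1, 23.5% against 4.33% for APOA2, 13.1% against 6.89% for APOC1 and 8.69% against 0.813% for APOE. All 4 were highest in SAR replicate 1 and lowest in SAR replicate 3. The value in SAR replicate 1 was 2.01 times that in SAR replicate 3 for APOA1, 1.62 times for APOA2, 1.30 times for APOC1 and 1.18 times for APOE. The endoderm transcription factor SOX17 had the same highest and lowest SAR library, at 85.3 FPKM in replicate 1, 68.5 in replicate 2 and 48.7 in replicate 3. HHEX, a transcription factor of the foregut and early liver, did as well, at 67.1, 55.0 and 42.8 FPKM. Among the 13 definitive endoderm markers 6 were highest in SAR replicate 1 and lowest in SAR replicate 3, as were 22.1% of all tested genes. FOXA2 was not, at 67.3, 60.1 and 64.7 FPKM, and HNF4A ran the other way, at 1.90, 2.18 and 2.30 FPKM. The part of these genes in the spread of the apolipoproteins was not tested. VTN departed from this pattern, with its lowest SAR value in replicate 2. Without SAR replicate 3 the log2 fold change of APOA1 became 0.27 and that of APOC1 0.069, and neither passed the test (adjusted p = 0.190 and 0.542 from limma).

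Related genes were taken from lists of the same pathways, in which 94 of 194 genes found in the table passed the filter. Of these 7 were upregulated and 3 downregulated, and by adjusted p alone 31 rose and 18 fell, with a median log2 fold change of 0.07. The shares for all tested genes are given above. The 49 genes past the adjusted p all kept their direction under median-ratio rescaling and under quantile normalization, where 39 and 41 of them still passed. LRG1 and C1S passed under neither rescaling (adjusted p = 0.0839 and 0.145 for LRG1 and 0.0547 and 0.102 for C1S from limma). Of those named here without such a remark, the adjusted p passed in 1 of the 6 fits that left out a library for LRG1, in 2 for C3, SEC24D and GATA6, and in 3 for CLU and C1S.

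Other plasma proteins were mostly under the filter, as were AFP and SERPINA1. Among other apolipoproteins 2 of 13 were tested and 1 rose, CLU (clusterin, also a chaperone), from 10.5 ± 3.03 to 17.5 ± 2.04 FPKM (log2 fold change 0.77, adjusted p = 0.0315 from limma). Of 27 other transport proteins 4 were tested and 2 rose. One was SELENOP, the carrier of selenium, from 4.20 ± 0.318 to 6.88 ± 0.805 FPKM (log2 fold change 0.70, adjusted p = 0.00375 from limma), and the other was LRG1 (0.74). Of 21 coagulation and fibrinolysis proteins 5 were tested and 2 rose, F10, the clotting factor X (log2 fold change 0.56), and SERPINF2, the inhibitor of plasmin. SERPINF2 was upregulated from 0.466 ± 0.225 to 1.13 ± 0.0187 FPKM (log2 fold change 1.19, adjusted p = 0.0209 from limma). Its control values were 0.720 FPKM in replicate 1 and 0.384 and 0.294 FPKM in replicates 2 and 3. The adjusted p of SERPINF2 passed in only 2 of 6 fits that left out 1 library, with a lowest log2 fold change of 0.97. Under quantile normalization the change was 0.95.

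Of 24 serpins and complement proteins 7 were tested, of which 3 rose and 2 fell. SERPINF1, a secreted serpin that restrains vessel growth, rose from 5.15 ± 0.425 to 10.0 ± 1.26 FPKM (log2 fold change 0.94, adjusted p = 0.00177 from limma), and SERPING1, the inhibitor of C1, rose by 0.52. The complement proteins went in both directions. C5 was downregulated from 0.847 ± 0.101 to 0.260 ± 0.0828 FPKM (log2 fold change -1.42, adjusted p = 0.0114 from limma). It had 18 to 36 reads per SAR library, and its change was -0.55 with a pseudocount of 1 FPKM, under the fold threshold. It reached the filter in only 4 of the fits that left out a library. C3 fell by 0.42 on the log2 scale, and C1S rose by 0.56. The median log2 fold change was 0.67 for the apolipoprotein list, 0.72 for transport proteins, 0.56 for coagulation proteins and 0.47 for serpins and complement. These medians rest on 2, 4, 5 and 7 tested genes, and that of all tested genes was 0.12. ORM2 (0.468 FPKM), F12 (0.452) and SERPINF2 (0.466) had control means under the filter and passed it only through their SAR values. C5 passed it only through its control values. Medians of so few genes depend on the filter, and their distance from 0.12 was not tested.

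Genes of lipoprotein assembly and secretion were mostly expressed, with 19 of 22 tested and a median log2 fold change of -0.03. In this list 4 rose and 4 fell. ABCG1, which exports cholesterol, was upregulated from 0.493 ± 0.126 to 1.24 ± 0.0794 FPKM (log2 fold change 1.19, adjusted p = 0.00670 from limma). Its control mean lay under the filter. The change was 0.96 under quantile normalization and 0.58 with a pseudocount of 1 FPKM, both under the fold threshold. TM6SF2, which acts in the lipidation of secreted lipoproteins, rose by 0.91. The 4 that fell act in folding or in transport out of the endoplasmic reticulum: the chaperones HSPA5 (-0.47) and CANX (-0.38) and the coat proteins SEC23A (-0.48) and SEC24D (-0.27). No other gene of the list fell by adjusted p. SEC24C had a larger change of -0.74, with overlapping groups (adjusted p = 0.0637 from limma). PDIA4 (-0.15) and SEC23B (-0.16) lay wholly lower with SAR (adjusted p = 0.0692 and 0.0871 from limma). LCAT (0.54) lay wholly higher (adjusted p = 0.0714 from limma). P4HB, SAR1A, SURF4 and MIA3 did not pass the test either (adjusted p between 0.204 and 0.995 from limma). LMF1 rose by 0.68, but passed under neither rescaling and in 1 of the 6 fits that left out a library. HSPA5, at 360 ± 25.2 FPKM in control and 260 ± 24.6 FPKM with SAR, was expressed at about the level of APOE in control.

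Receptors and lipases that take up or remodel lipoproteins had 13 of 20 genes tested, of which 3 rose and 5 fell, none past the fold threshold. VLDLR, a receptor that takes up particles with APOE, fell from 11.2 ± 0.626 to 5.91 ± 0.721 FPKM (log2 fold change -0.92, adjusted p = 0.00139 from limma). MYLIP, a ubiquitin ligase known to degrade lipoprotein receptors, rose from 5.29 ± 0.592 to 8.38 ± 0.590 FPKM (0.66). STRA6, the receptor for retinol-binding protein, rose by 0.80.

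Among receptors and partners of vitronectin 7 of 9 genes were tested, of which 2 rose and 4 fell. The subunits that form the abundant vitronectin receptors fell: ITGAV from 23.9 ± 0.813 to 13.6 ± 0.797 FPKM (log2 fold change -0.80, adjusted p = 0.000522 from limma), ITGB1 by 0.54 and ITGB5 by 0.34 on the log2 scale. ITGB8, another partner of ITGAV, was upregulated from 0.733 ± 0.0243 to 1.83 ± 0.166 FPKM (1.21, adjusted p = 0.00124 from limma). VTN rose while most of the tested genes for its binding partners fell, at levels that stayed above that of VTN for ITGAV, ITGB1 and ITGB5.

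Of 33 regulators of hepatic plasma protein genes 20 were tested, of which 4 were upregulated and 1 downregulated, and 11 rose and 2 fell by adjusted p alone (median log2 fold change 0.48). FOXA1 (2.54), FOXA2 (1.44), TBX3 (1.42) and HHEX (1.03) were upregulated and GATA4 (-1.05) was downregulated. HNF4A lay between 1.90 and 2.48 FPKM in all 6 libraries. CEBPA, a factor of mature hepatocytes, was under the filter, at 0.102 to 0.176 FPKM in control and 0.392 to 0.502 FPKM with SAR. GATA6 fell by 0.58 on the log2 scale. With each library left out in turn, the log2 fold change lay between 0.87 and 1.19 for HHEX and between -1.17 and -0.89 for GATA4, so both could drop under the fold threshold, and HHEX was at 0.89 after median-ratio rescaling.

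Genes lying next to the 10 on the chromosome were compared as a check on position, and 18 of 38 were tested. Of these 3 rose and 1 fell, 0 were upregulated or downregulated, and the median log2 fold change was 0.05. NECTIN2, in the same cluster as APOE, went from 43.3 ± 0.955 to 53.6 ± 1.88 FPKM (0.31, adjusted p = 0.00553 from limma), whereas its neighbor TOMM40 had 23.0 ± 1.88 FPKM in control and 20.8 ± 2.62 with SAR (-0.15, adjusted p = 0.302 from limma). After median-ratio rescaling NECTIN2 was at 0.17 and no longer passed (adjusted p = 0.0959 from limma), and after quantile normalization it was at 0.31 and passed (adjusted p = 0.00484 from limma).

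**Figure D5:**
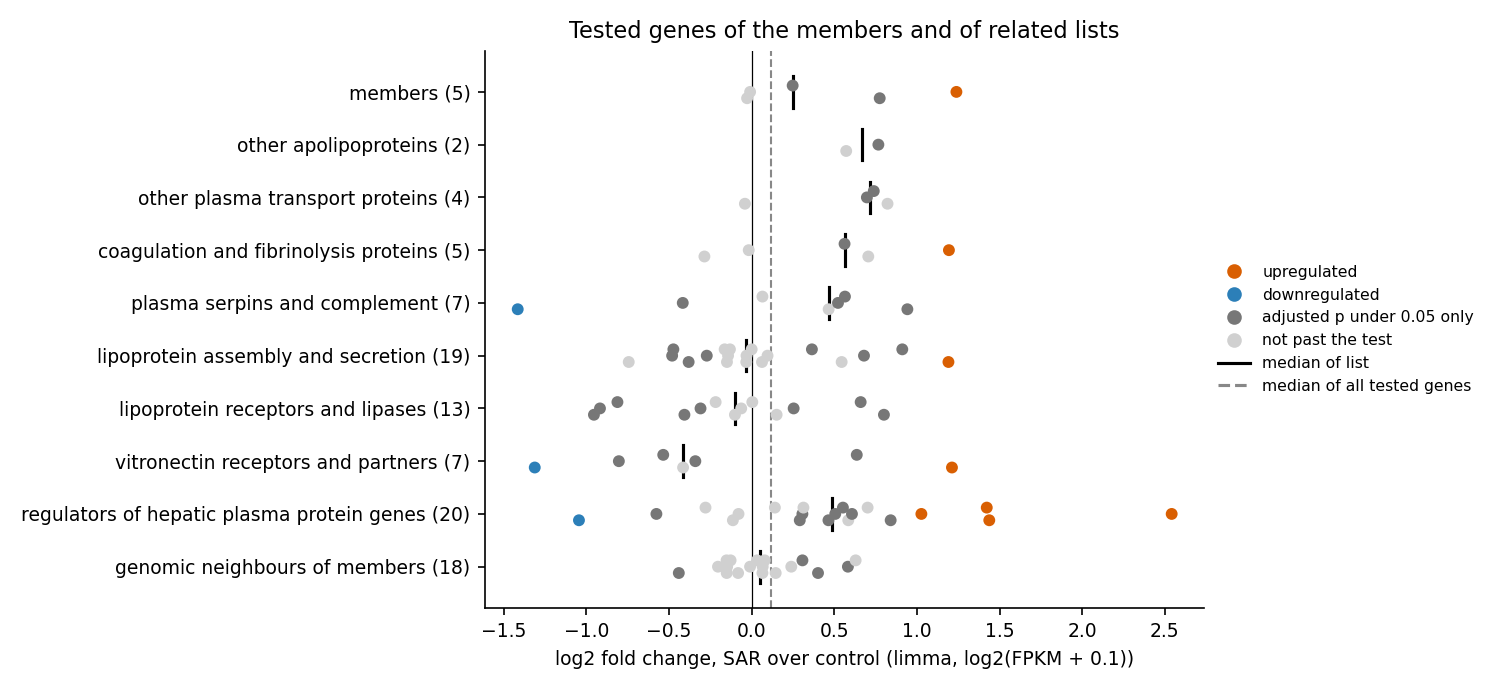
Log2 fold change of SAR over control for the tested genes of the 10 plasma protein genes and of 9 related lists (number tested in parentheses), with 1 dot per gene colored by its call, a black tick at the median of the list and a dashed line at the median of all tested genes (0.12). The dots of every list lie on both sides of the dashed line except those of the 2 other apolipoproteins, and upregulated dots are most frequent among the regulators, with 4.

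Other cell types that express these proteins were examined through their markers. APOE and APOC1 are known to be expressed by macrophages, and only 1 of 8 macrophage genes was tested, FCER1G (0.558 FPKM in control and 0.877 with SAR, log2 fold change 0.63, adjusted p = 0.144 from limma). The list had a summed level of 0.986 to 3.13 FPKM in control and 1.18 to 1.79 FPKM with SAR. CD14 did not exceed 0.277 FPKM and CSF1R 0.425 FPKM, both maxima among the control libraries, and C1QA was listed at 0 in all 3 SAR libraries. Of 15 markers of extraembryonic and yolk sac endoderm, which makes AFP, TTR and apolipoproteins, 9 were tested and 0 were upregulated or downregulated, with a summed level of 227 to 247 FPKM in control and 199 to 217 FPKM with SAR. By adjusted p alone 4 of them rose, among them DAB2 (0.86) and LAMB1 (0.57), and 2 fell, SPARC (-0.28) and COL4A1 (-0.42). The hepatoblast list had a summed level of 4.62 to 5.95 FPKM in control and 7.65 to 7.92 FPKM with SAR, with 4 of 14 genes tested, of which TBX3 (1.42) was upregulated and DLK1 (0.96) rose. The part of these cell types in the values of APOA2, APOE and VTN was not tested.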

How the data were processed

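RNA-seq of 3 control libraries and 3 libraries with 0.5 µM SAR was taken from 1 table of 40396 Ensembl genes, in which the authors deposited FPKM, with 1 column per library and without pooling. The submitters' processing notes name HISAT2, featureCounts (Subread), DESeq2 and GRCh38 (p13), and the strand setting and annotation release are not given in the sources used here. FPKM depend on the gene length used and are scaled between libraries by the total reads alone.

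Because FPKM are not counts, limma 3.58.1 in R 4.3.3 (eBayes with an intensity trend) was run on log2(FPKM + 0.1), without a replicate block, after genes whose mean over the 6 libraries was under 0.5 FPKM had been left out, which kept 16371. Fold changes on this scale understate the change of low genes. Called genes had an adjusted p under 0.05 and a log2 fold change above 1 in size. Reads were recovered as whole multiples of what 1 read is worth, with ratios between libraries taken from the FPKM and their size from GENCODE 29 exon lengths. They came out whole, within 0.01 read, for 40341 of 40396 genes (99.9%), and were used for depth and for an added voom test. Whole reads of a gene with few values above 0 can be a multiple of the true number. Intervals and limits from reads cover counting error only. Counts of replicates gave a chi-square per degree of freedom of 3.67 to 12.1, above the sampling noise, so no library was a copy of another. Symbols were matched for 30235 IDs, and positions and exon overlaps come from GENCODE 29, which holds 39023 of them.

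The 10 genes, the 9 related lists and the marker lists were chosen with earlier results of these data known, and the lists get counts and medians only. Named genes were the 10 members, up to 4 called genes per direction and 3 others by level from each list, and the 3 genes most like a called member. Genes named beyond this, among them those that passed the adjusted p alone or mark a cell type, were named after their values were seen. Alternatives changed the pseudocount (1 or 0.01), the filter (none, or a mean of 1 FPKM), the scaling (median-ratio or quantile), the intensity trend, the replicate block, the fold threshold and the libraries kept (each left out in turn), and voom on the recovered reads was added after the data were seen. The test was checked on simulated data. Some genes that the naming rule covers are not reported here. Python 3.11.15 served for summaries (pandas 2.3.3, numpy 2.4.6, scipy 1.17.1) and for plots (matplotlib 3.10.9).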

Additional observations from a re-analysis of the deposited data

How the results depend on the processing

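VTN rose in 14 of 14 alternatives in which it was tested and was past the fold threshold in 13, APOA2 rose in 15 of 15, and APOA1 and APOC1 passed in 0 of 15. APOE passed in 5 of 15. Its fold was smaller under both rescalings (0.11 and 0.12), while in the 5 of 6 fits without a library that did not pass it stayed between 0.18 and 0.27, and it stayed at 0.25 with no filter on low values (adjusted p = 0.136 from limma) and with no intensity trend (adjusted p = 0.0651 from limma). The count of the 10 genes upregulated went from 1 to 0 with a pseudocount of 1 FPKM, to 0 with a minimum mean of 1 FPKM, which left VTN untested, and to 3 with no minimum fold change. Direction changed for APOA1 (0.10 without control replicate 1 and 0.27 without SAR replicate 3, range over the 6 fits -0.23 to 0.27) and for APOC1 (0.03 without control replicate 2 and 0.069 without SAR replicate 3, range -0.12 to 0.069), none of which passed the test. Upregulated genes in the related lists numbered 7, with 3 at a pseudocount of 1 FPKM and 31 with no minimum fold change. Downregulated ones numbered 3, with 1, 5 and 18 at a pseudocount of 1 FPKM, under median-ratio rescaling and with no minimum fold change. Among those named, ABCG1, SERPINF2, ITGB8, TBX3, C5 and GATA4 were under the fold threshold at a pseudocount of 1 FPKM. Over all tested genes 559 were upregulated and 259 downregulated. These numbers became 169 and 141 with a pseudocount of 1 FPKM, 369 upregulated with a minimum mean of 1 FPKM, 340 and 409 under quantile normalization, and 3885 and 1563 with no minimum fold change. The share of calls that were higher with SAR was 68.3%, against 49.9% (379 and 381 genes) under median-ratio rescaling, 45.4% under quantile normalization and 54.5% with a pseudocount of 1 FPKM. The fold threshold removes more genes as the pseudocount grows and the minimum mean removes genes from the test by construction. The cause of the other changes was not tested. Samples share replicate numbers, but the deviations of same-numbered libraries correlated at 0.0729, 0.00286 and 0.0247, so the numbers were not taken as a pairing. With the replicate block 546 genes were upregulated and 274 downregulated, VTN was at 1.24 (adjusted p = 0.0140 from limma), APOA2 at 0.77 (adjusted p = 0.0167) and APOE at 0.25, with an adjusted p of 0.0501. The few reads behind AFP, APOB, TTR, FGB and SERPINA1 limit what could be detected.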

Other observations

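Marker genes of other lineages were measured beside the plasma protein genes. TBXT, a mesoderm and notochord factor, was upregulated from 3.51 ± 0.245 to 11.7 ± 2.15 FPKM (log2 fold change 1.69, adjusted p = 0.000574 from limma), with 5 of 11 mesoderm markers tested. Of 9 neural ectoderm markers 4 were tested and SIX3 and OLIG3 were upregulated, of which SIX3 went from 0.343 ± 0.112 to 1.14 ± 0.160 FPKM (1.51, adjusted p = 0.00631 from limma). OLIG3 lay between 0 and 0.146 FPKM in control and between 2.32 and 4.85 FPKM with SAR. Control levels of SIX3 and OLIG3 were under the filter on low values, which both genes passed only through their SAR values. Of 10 trophoblast and amnion markers 3 were tested and GATA3 (1.08) was upregulated, but its change was 0.95, 0.88 and 0.68 under median-ratio rescaling, quantile normalization and a pseudocount of 1 FPKM. Of 10 pluripotency markers all were tested, NANOG was downregulated from 14.7 ± 1.71 to 5.89 ± 0.604 FPKM (-1.30, adjusted p = 0.000672 from limma), and SOX2 rose by 0.88. Of the 13 definitive endoderm markers SOX17 (1.06), FOXA1, FOXA2 and HHEX were upregulated and GSC (-1.48), EOMES (-1.36), CER1 (-1.28) and GATA4 were downregulated. SOX17 was at 0.92 after median-ratio rescaling and as low as 0.87 with a library left out, and CER1 at -0.93 after quantile normalization, all under the fold threshold. The relation of these levels to those of the plasma protein genes was not tested.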
